A study of Drosophila melanogaster with 20 samples.

Results

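A set of 154 genes, of 8360 measured above a minimum signal in whole Drosophila melanogaster embryos, gave less messenger RNA in the mef2 allele 424 than in both other hypomorphic alleles of the series, 65 and 113. A gene entered the set when its mean log2(signal + 16) over the 4 arrays of 424 lay at least 0.5 below its mean in 65 and also at least 0.5 below its mean in 113. The overall mean had to reach 4.66 on that log2 scale, a signal of 9.28, and the probe set with the highest mean stood for its gene. In all, 163 genes (1.95% of 8360) met the dip, and 9 of them were left out by name, including genes of cuticle protein families. Because measured values chose the set, every difference that involves 424, 65 or 113 is given here as a description with no test. Only null against control uses arrays that had no part in the dip, and only that comparison was tested. Its arrays did count in the overall mean, which set the filter and the choice of probe set.

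The series holds 5 genotypes with 4 arrays each. The first is mef2 424, a hypomorph, and the others are the hypomorphs mef2 65 and mef2 113, the null mef2 22.21, and a control, the stock dp cn a px sp. The 3 hypomorphs were induced by mutagenesis of that control stock, and the labels rank Mef2 level from control through 65, 424 and 113 down to 22.21, so that 424 lies between the other hypomorphs. Mutant embryos were picked by the lack of a CyO balancer that carries twi-Gal4 and UAS-2eGFP. All embryos came from collections of 30 min, were aged 6.5 h at 25 °C, were sorted at mid stage 12 and grew to mid stage 13 in pools of 150. Biotin-labelled cRNA was made from 5 ug of total RNA and read on Affymetrix arrays. Each allele is represented by 1 labelled stock, and other mutations on the mutagenised chromosomes are not described in the sources used here. The labels do not state whether replicate arrays stem from independent embryo collections, so a p-value here reflects array-to-array spread that could be purely technical.

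Mef2 is a MADS-box transcription factor that switches on genes of muscle differentiation, such as those of the sarcomere, in the embryonic mesoderm. Mid stage 13 follows germ band retraction, when muscle precursors fuse and the epidermis and tracheal tubes begin to build the apical extracellular matrix that precedes the chitin-containing cuticle. Secreted proteases, zona pellucida domain proteins and chitin-binding proteins shape that matrix, and tendon cells of the epidermis anchor the muscles to it.

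No probe set used here was named for Mef2, so the level of the targeted gene was not analysed. The median difference between genotypes over all 8360 genes was within 0.01 of 0 for 424 against each of the other hypomorphs. Across the set, the median log2 difference was -0.70 for 424 minus 65 and -0.72 for 424 minus 113. The dip, defined as the smaller of the 2 distances below 65 and 113, was at least 1 in 17 genes. The set was not made of dim or bright genes alone, since the median gene had an overall signal of 72.7, against 69.9 over all genes. It held 70 genes known here only by a CG number, which are described by their values and not by a role.

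**Figure D1:**
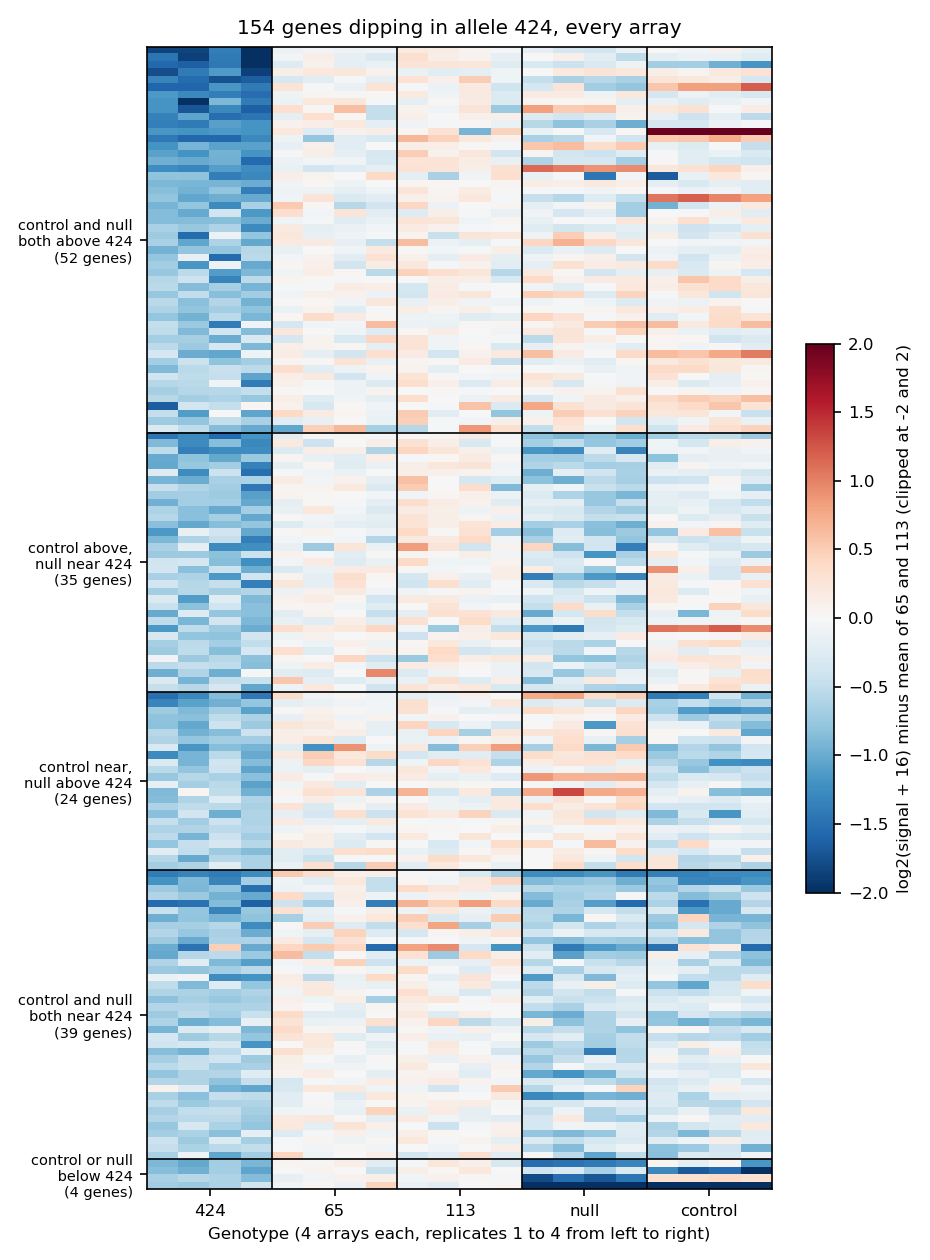
Each line across is 1 of the 154 genes and each column 1 array, with colour giving log2(signal + 16) minus the mean of the 65 and 113 means. Genes are grouped by where the control and null means lie relative to 424. The 424 columns are blue in nearly all genes, with 153 of 154 below 0 on each array, whereas the null and control columns are pale in the uppermost 52 genes and blue in many of the others.

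The dip was seen on each 424 array and not on 1 alone. Measured against the mean of 65 and 113, the median of the 154 genes was -0.69, -0.77, -0.68 and -0.87 on 424 replicates 1 to 4. On the 65 arrays it was 0.01, 0.02, -0.01 and -0.08, and on the 113 arrays 0.09, 0.03, 0.02 and -0.02. The 4th 424 array was the lowest of its group, and the range of the 424 arrays did not overlap with that of 65 or 113. In 105 of the 154 genes all 4 arrays of 424 lay below all 8 arrays of 65 and 113, a pattern that 2.85% of all genes showed. The rule used those same arrays, so nothing is read from that excess or from how the medians of the 424 arrays stood apart. The 3 genes just inside the threshold were Spn88Ea, CG32271 and MetRS-m, with dips of 0.510, 0.504 and 0.50, and just outside it were CG2187, CG6770 and CG17782, with 0.498, 0.497 and 0.496.

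The run records give a fluidics day and a fluidics module for each array, but no module held all 3 hypomorphs. Replicates 1 to 4 of 424, 113, null and control were run on days 1 to 4, whereas 65 was run on days 1 and 3 only. Within the 4 days the median of 424 minus 113 was -0.80, -0.82, -0.74 and -0.80, and that of 424 minus 65 was -0.74 on day 1 and -0.66 on day 3. Module 1 held 2 arrays of 424 and 2 of 65, and there 154 of the 154 genes were lower in 424, with a median of -0.79. Module 2 held 2 arrays of 424 and 2 of 113, and there 153 of 154 were lower in 424, with a median of -0.67. In 102 of 154 genes 424 was at least 0.5 lower within both modules. Over all genes the medians were -0.008 in module 1 and 0.008 in module 2. The rule used these same 424, 65 and 113 arrays, so nothing is read from the agreement within days and modules. The record of 65 replicate 4 holds an abort message, and without that array 160 genes met the rule, 142 of them among the 154.

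**Figure D2:**
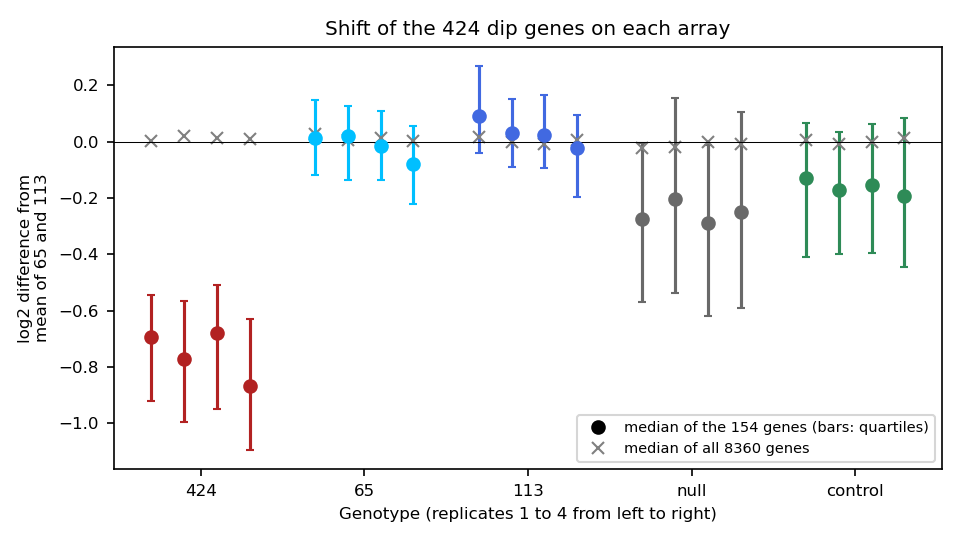
Points give, for each array, the median over the 154 genes of log2(signal + 16) minus the mean of the 65 and 113 means, with bars from the lower to the upper quartile; crosses give the median of all 8360 genes. The 424 arrays lie between -0.87 and -0.68, and the crosses stay near 0 on every array.

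A working description of the set as genes that dip only in 424 held for part of it. The 424 mean was the lowest of the 5 genotype means in 135 of 154 genes, against 19.6% of all genes. It lay at least 0.5 below the control in 89 genes, against 4.95% of all genes, and at least 0.5 below the null in 76, against 4.93%. Both held in 52 genes, against 1.34% of all genes, and in 49 genes all 4 arrays of 424 were below the other 16 arrays, against 1.04%. The rule chose genes for a low 424 mean, so nothing is read from these excesses. In 35 genes the control was at least 0.5 above 424 and the null lay within 0.5 of it. In 24 genes the null was above and the control within 0.5, and in 39 both were within 0.5 of 424. By the medians of these 39, the control lay between 424 and the other hypomorphs. The median log2 differences were -0.34 for 424 minus control, 0.36 for 65 minus control and 0.39 for 113 minus control. In CG3348, CG1116 and Spn88Ea the control was below 424. The rule and the limits of this class together place the control below 65 and 113. The remaining 4 genes, CG6426, Nep2, GstD3 and Drsl5, had a control or null mean at least 0.5 below 424. That was the control in 2 of them, against 3.76% of all genes, and the null in 3, against 7.81%. In 99 genes, therefore, 424 lay within 0.5 of the control, the null or both. Because these are pooled whole embryos, fewer cells of a type and less RNA per cell cannot be told apart.

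**Figure D3:**
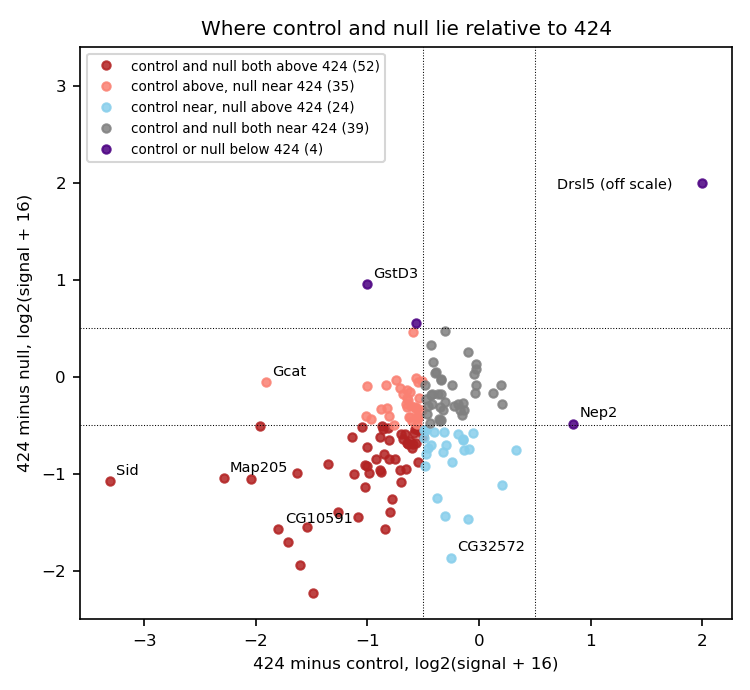
Each point is 1 of the 154 genes, with 424 minus control on the x axis and 424 minus null on the y axis, both on the log2(signal + 16) scale; dotted lines mark differences of 0.5. The 52 genes at the lower left are lower in 424 than in control and null, 39 lie in the central square, and Drsl5, whose differences of 5.46 and 5.45 lie off the scale, is placed at the edge.

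Among genes of chitin, cuticle and apical matrix, 8 were in the set. Of these 8, slf, a C-type lectin-like protein needed for an ordered larval cuticle, dipped most. Its signals were 125, 89.9, 129 and 75.01 in 424, 359, 411, 332 and 301 in 65 and 469.6, 412, 391 and 330.5 in 113. They were 369, 399, 319 and 258 in the null and 327, 340.3, 339.6 and 312 in the control. All 4 arrays of 424 lay below the other 16 arrays, and the other 4 genotypes overlapped with each other. The dip of slf was 1.62 on the log2 scale, a 3.07-fold lower value of signal + 16. The 8 do not count the cuticle protein families, Cht5 and sha, which were left out by name. Among the genes left out, Cpr11A dipped by 1.63.

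Gasp, a chitin-binding protein of tracheal and epidermal matrix, had signals of 127, 109, 122 and 66.3 in 424, 201, 209.7, 236 and 152 in 65 and 289, 258, 247 and 188 in 113. They were 145, 136, 135 and 125 in the null and 116, 140.5, 156 and 125 in the control. Here the 65 and 113 means stood above the other 3 genotypes, 1 array of 65 overlapped with the control, and the 424 arrays overlapped with both null and control. obst-B, another chitin-binding protein of the obstructor family, had 424 arrays that overlapped with those of both null and control, at 183 ± 49.1 in 424, 271 ± 36.9 in 65, 270.4 ± 31.2 in 113, 171 ± 14.4 in the null and 240.0 ± 45.7 in the control (mean ± SD, n = 4 each). Its null arrays were all below its control arrays, and it fell by 0.44 ± 0.16 in the null (limma adjusted p = 0.0483), a call that was lost under 20 of 32 alternatives, at values from -0.53 to -0.34. Peritrophin-A, a chitin-binding protein, averaged 13.9 ± 1.29 in 424, 30.7 ± 4.54 in 65, 29.6 ± 2.04 in 113, 25.1 ± 3.08 in the null and 29.5 ± 6.59 in the control. All 4 of its 424 arrays lay below the other 16.

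The Osiris genes Osi6 and Osi7 are neighbours on chromosome arm 3R, and their family encodes transmembrane proteins of cuticle-secreting cells. Osi7 had signals of 32.5, 32.3, 35.6 and 15.9 in 424, 61.6, 92.3, 48.4 and 38.5 in 65 and 80.5, 116, 32.5 and 49.1 in 113. They were 33.3, 43.4, 34.2 and 39.8 in the null and 27.3, 44.6, 34.5 and 27.7 in the control. The arrays of 424 overlapped with those of 113, null and control. Osi6 spread widely within each genotype, from 9.46 to 82.5 in 424 and from 7.90 to 70.6 in the control, so its dip of 0.70 rests on arrays that disagree. The zona pellucida domain gene mey, which acts in epidermal matrix, averaged 53.6 ± 3.55 in 424, 91.5 ± 25.0 in 65, 111 ± 10.2 in 113, 74.97 ± 7.37 in the null and 80.4 ± 5.52 in the control. A second probe set of mey gave 56.5 ± 14.8 in 424, 87.8 ± 17.1 in 65, 106 ± 33.4 in 113, 86.0 ± 12.5 in the null and 73.8 ± 11.8 in the control, and it too met the dip. The median of 424 minus the mean of 65 and 113 was -0.29 on a list of epidermal differentiation and apical matrix, against 0.01 over all genes. Of the 24 measured genes on that list, 3 met the dip, against 1.95% of all genes. The 3 were mey and the excluded Cht5 and sha.

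Secreted proteases and their inhibitors gave 5 members. mas encodes masquerade, a serine protease homologue without catalytic activity that is needed for the attachment of muscles to the epidermis. Its signals were 162, 154, 179 and 109.7 in 424, 426, 548, 447 and 464 in 65 and 618, 612, 602 and 432 in 113. They were 413, 375, 417 and 476 in the null and 309.7, 315, 254 and 218 in the control. The 424 arrays were the lowest of the 20, the control came next, and the null lay above the control without overlap. mas rose in the null by 0.60 ± 0.14 (log2 difference ± SE, limma adjusted p = 0.00241).

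Np encodes Notopleural, a membrane-bound serine protease that trims apical matrix in the trachea, and it averaged 53.5 ± 18.0 in 424, 103 ± 16.1 in 65, 108 ± 45.2 in 113, 78.9 ± 14.0 in the null and 85.2 ± 20.8 in the control. Replicate 4 was its lowest array in each hypomorph, and the 424 arrays overlapped with those of 113. Nep2, a neprilysin that cleaves small peptides, had 153, 140.0, 175 and 130.2 in 424, 288, 306, 291 and 207 in 65 and 314, 297, 336 and 292 in 113. It had 216, 234, 179 and 233 in the null and 109, 79.5, 88.3 and 40.6 in the control. The control was lowest here, so that Nep2 did not dip only in 424, and it rose in the null by 1.33 ± 0.17 (limma adjusted p = 1.74e-06). The serpin gene Spn100A also had its lowest mean in the control, at 173 ± 23.3 in 424, 322 ± 12.8 in 65, 317 ± 55.4 in 113, 393 ± 41.1 in the null and 148 ± 30.5 in the control, and rose in the null by 1.33 ± 0.12 (limma adjusted p = 1.25e-08). A second serpin, Spn88Ea, averaged 36.3 ± 2.77 in 424, 58.4 ± 2.32 in 65, 60.6 ± 4.80 in 113, 40.5 ± 13.1 in the null and 30.1 ± 8.24 in the control.

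Genes of the cell surface and of signalling gave 9 members, of which 6 had a control mean at least 0.5 above 424. kek5, a transmembrane protein with leucine-rich repeats that modulates BMP signalling, had signals of 79.8, 50.6, 73.5 and 54.5 in 424, 258, 207, 314 and 140.3 in 65 and 213, 189.7, 244 and 115 in 113. They were 368, 295, 303 and 218 in the null and 236, 252, 195 and 226 in the control. No 424 array reached any of the other 16, although the 65 arrays spread over more than a 2-fold range. spz6, a ligand-like protein of the Spätzle family, averaged 172 ± 15.9 in 424, 359 ± 49.0 in 65, 425 ± 106 in 113, 324 ± 52.6 in the null and 341 ± 26.5 in the control, with every 424 array below the other 16. stan, the atypical cadherin Flamingo of planar cell polarity, averaged 164 ± 35.4 in 424, 299 ± 26.9 in 65, 362 ± 37.0 in 113, 207 ± 9.94 in the null and 309.8 ± 26.3 in the control. It fell by 0.55 ± 0.11 in the null (limma adjusted p = 0.00112).

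blot, which encodes a member of a family of neurotransmitter transporters, followed the pattern of Gasp. Its signals were 114, 89.6, 123 and 122 in 424, 222, 152, 243 and 194 in 65 and 191, 198, 183 and 202 in 113. They were 107, 101, 117 and 114 in the null and 128, 103, 107 and 127 in the control. The arrays of 424, null and control overlapped with one another, and only the 65 and 113 arrays were higher. fw, a selectin-like adhesion protein, and the cadherin gene Cad89D had dips of 0.56 and 0.77.

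**Figure D4:**
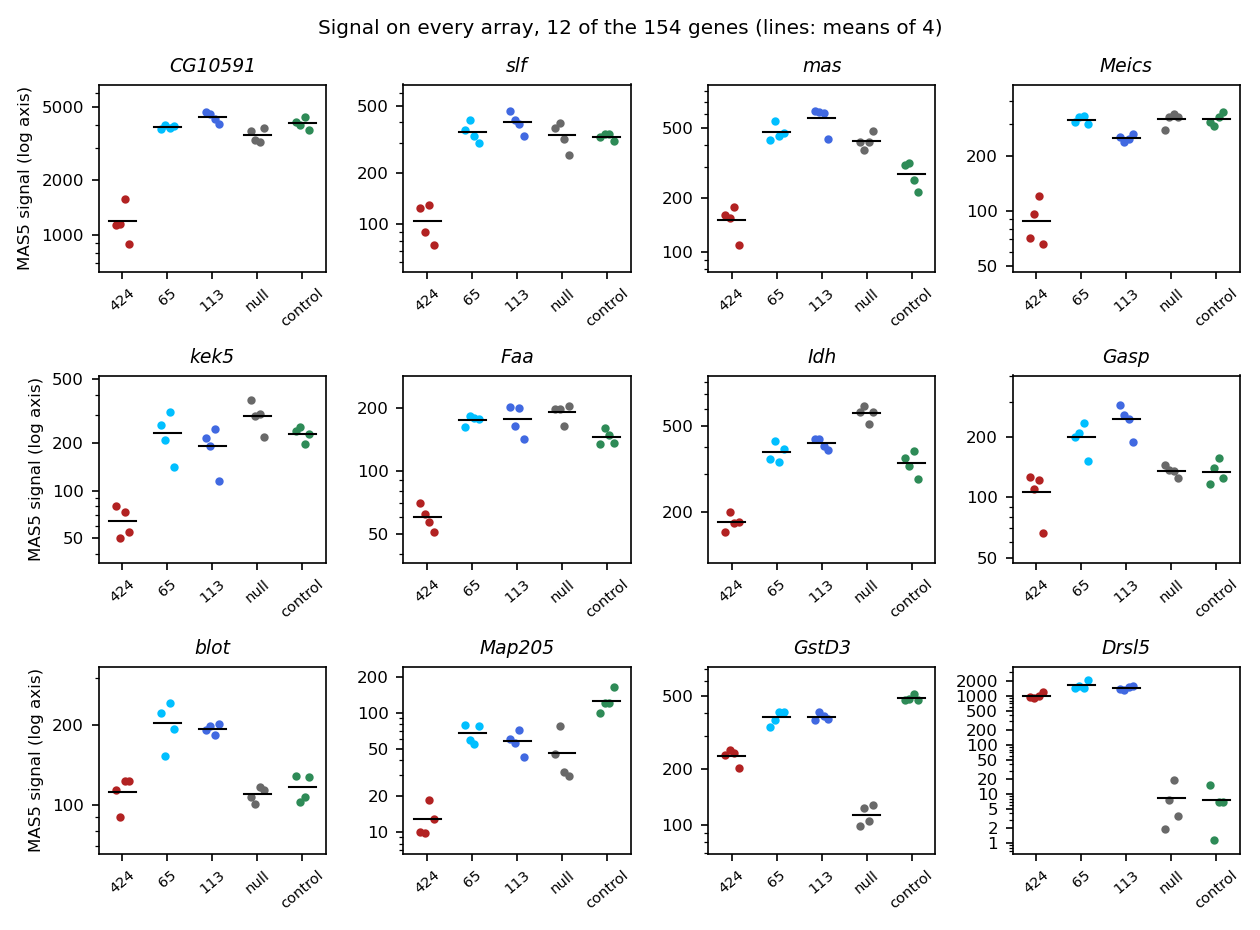
MAS5 signal on every array, on log axes, for 12 of the 154 genes, with genotypes from 424 on the left to control on the right and lines at the means of 4 arrays. In slf, Meics, kek5, Faa and Idh the 424 arrays lie below all others. In Gasp and blot they overlap with null and control, in GstD3 the null is lowest, and in Drsl5 null and control are under 20.

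Protein glycosylation and modification gave 4 members, each with a control mean at least 0.5 above 424. rt encodes the protein O-mannosyltransferase rotated abdomen, which glycosylates dystroglycan and is needed for normal muscle and body shape. Its signals were 48.1, 58.2, 47.9 and 61.5 in 424, 119, 101, 95.2 and 126 in 65 and 110.1, 117, 129 and 115 in 113. They were 64.6, 64.1, 74.3 and 87.2 in the null and 57.4, 98.5, 100.3 and 101 in the control. The 424 arrays were below those of 65 and 113 and overlapped with 1 control array, at 57.4. The O-GalNAc transferases Pgant2 and Pgant7 averaged 91.3 ± 12.4 and 99.2 ± 31.4 in 424, 138 ± 17.5 and 159 ± 22.2 in 65, 151 ± 14.2 and 177 ± 31.8 in 113, 110.5 ± 15.7 and 134 ± 22.6 in the null, and 150.3 ± 18.5 and 148 ± 9.83 in the control. PH4alphaNE1, an alpha subunit of prolyl 4-hydroxylase, averaged 25.7 ± 10.6 in 424, 51.3 ± 2.10 in 65, 50.1 ± 8.98 in 113, 61.2 ± 7.02 in the null and 66.0 ± 12.7 in the control. Its neighbour on arm 3R, CG31371, had a larger dip of 1.34, with means of 41.1 in 424, 137 in 65, 122 in 113, 128 in the null and 115 in the control.

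Transcription regulators gave 5 members, and their dips were at the small end of the set, from 0.52 to 0.63. sr encodes Stripe, the EGR-family factor that specifies tendon cells, and had signals of 152, 106, 104 and 147 in 424, 180.1, 206, 194 and 202 in 65 and 142, 203, 210.2 and 227 in 113. They were 148, 163, 171 and 218 in the null and 198, 192, 201 and 219.9 in the control. The 424 arrays were all below 160 while 3 of the 4 arrays of 113 were above 200, but 1 array of 113, at 142, overlapped with 424. On a list of muscle attachment and integrin adhesion, sr alone of 21 measured genes met the dip, against 1.95% of all genes. The list's median of 424 minus the mean of 65 and 113 was -0.06.

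tup encodes the LIM-homeodomain factor Tailup, an Islet protein of the amnioserosa, heart region and motor neurons. The brighter of its 2 probe sets had signals of 41.8, 32.0, 14.3 and 59.7 in 424, 46.9, 61.4, 61.2 and 107 in 65 and 58.0, 57.4, 65.3 and 67.3 in 113. They were 66.9, 74.4, 98.6 and 104 in the null and 106, 75.2, 88.1 and 108 in the control. The arrays of 424 overlapped with those of 65 and 113. The second probe set of tup separated the genotypes further, with 16.8, 12.5, 0.705 and 2.07 in 424, 114, 91.4, 104.5 and 67.9 in 65, and 73.2, 121.6, 73.4 and 76.3 in 113. It read 77.9, 108, 80.0 and 76.2 in the null and 81.5, 99.0, 94.9 and 102.8 in the control. On that probe set the 424 arrays were below all 16 others, with a dip of 2.12, whose size depends on the pseudocount because the 424 mean of 8.02 lay under the minimum signal of 9.28. Only tup and mey had a further probe set that met the dip, of 19 further probe sets over the minimum signal, and 12 of the 19 lay below both 65 and 113. Of the other regulators, cbt, a zinc-finger factor, had 424 arrays below all those of 65 and 113, whereas Tob, an antiproliferative protein, and rno, a PHD-finger protein, overlapped. rno rose in the null by 1.08 ± 0.23 (limma adjusted p = 0.00105).

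Enzymes of tyrosine, pteridine and amino acid metabolism gave 5 members. Faa encodes fumarylacetoacetase, the last enzyme of tyrosine breakdown, and its signals were 70.1, 61.7, 57.0 and 50.7 in 424, 163, 183, 178 and 177 in 65 and 202, 163, 200.3 and 142 in 113. They were 198, 198, 164 and 205 in the null and 135, 159.7, 148 and 136 in the control. The 424 arrays formed a group of their own below 71, with the control next. Faa was called higher in the null, by 0.36 ± 0.11 (limma adjusted p = 0.0204), and the call was lost when null replicate 1 or 4 or control replicate 1 or 4 was left out, at values from 0.33 to 0.35. It was also lost with the fluidics module as a block, at 0.29, and with the mean of all probe sets, at 0.082. Its further probe set read under 8 on average in every genotype. GstZ2, of the glutathione transferase class that acts one step before Faa, averaged 6.15 ± 3.35 in 424 and 20.5 ± 4.90 in 65, near the minimum signal.

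Pu encodes GTP cyclohydrolase I, which starts the synthesis of pteridines and of the tetrahydrobiopterin that tyrosine hydroxylase needs. It averaged 37.5 ± 7.16 in 424, 87.0 ± 11.4 in 65, 66.7 ± 4.13 in 113, 89.9 ± 15.1 in the null and 83.4 ± 19.0 in the control, and its 424 arrays lay below all 16 others. Pcd, which recycles that cofactor, averaged 35.9 ± 18.1 in 424, 66.6 ± 12.4 in 65, 68.6 ± 10.6 in 113, 74.4 ± 12.5 in the null and 72.3 ± 16.6 in the control, with overlap. Gcat, a glycine C-acetyltransferase of threonine breakdown, had another order, with 10.5, 25.1, 19.9 and 13.4 in 424, 58.9, 49.2, 51.6 and 62.4 in 65 and 40.8, 19.2, 48.6 and 26.1 in 113. It had 10.5, 6.04, 30.2 and 33.7 in the null and 108, 104, 119.8 and 96.5 in the control. Both 424 and null were low and the control highest, and Gcat fell by 1.85 ± 0.22 in the null, on the log2 scale (limma adjusted p = 1.08e-06).

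The other metabolic enzymes, 14 genes, had mostly small dips, with a median of 0.56. Idh, the NADP-dependent isocitrate dehydrogenase, dipped most, with signals of 163, 200.4, 179 and 181 in 424, 353, 426, 341 and 392 in 65 and 435, 436, 405 and 388 in 113. They were 580.1, 614, 512 and 578 in the null and 355, 325, 384 and 284 in the control. The 424 arrays lay below and the null arrays above all others, and Idh rose in the null by 0.74 ± 0.09 (limma adjusted p = 1.95e-06). Hmgs, the HMG-CoA synthase of the mevalonate pathway, averaged 240.4 ± 11.4 in 424, 362 ± 67.0 in 65, 379 ± 46.2 in 113, 457 ± 36.0 in the null and 288 ± 20.3 in the control. It rose in the null by 0.64 ± 0.10 (limma adjusted p = 7.94e-05), but the call was lost with the mean of all probe sets, at 0.36. Its neighbour on arm 2R, CG7997, averaged 426 ± 11.2 in 424, 807 ± 37.5 in 65, 849 ± 10.0 in 113, 921 ± 19.3 in the null and 703 ± 26.0 in the control, and also rose in the null, by 0.38 ± 0.06. A further probe set of Hmgs averaged 13.7 in 424, 20.2 in 65 and 11.4 in 113, so that 424 was not below 113.

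Papss, the enzyme that makes the sulfate donor PAPS, averaged 541 ± 18.7 in 424, 795 ± 48.1 in 65, 846 ± 30.7 in 113, 803 ± 56.1 in the null and 769 ± 54.4 in the control, and all 4 arrays of 424 were below the other 16. Aprt, the adenine salvage enzyme, averaged 49.2 ± 14.1 in 424, 137 ± 15.8 in 65, 83.0 ± 7.87 in 113, 137 ± 6.98 in the null and 67.6 ± 9.52 in the control, and rose in the null by 0.87 ± 0.13. The lysosomal sulfatase gene Sgsh and the carbonic anhydrase gene CAH1 rose there as well, by 0.66 and 0.45. The call of CAH1 was lost with the fluidics module as a block, at 0.35.

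GstD3, a glutathione transferase, was among the members whose low point was not 424. Its signals were 238, 254, 243 and 201 in 424, 339, 368, 407 and 409.5 in 65 and 367, 405, 387 and 372 in 113. They were 98.4, 122, 105 and 128 in the null and 473, 480.0, 509 and 474 in the control. The 5 genotypes fell into 4 levels without overlap, null lowest, then 424, then 65 and 113 together, then control. GstD3 fell by 1.96 ± 0.09 in the null, on the log2 scale (limma adjusted p = 4.22e-14). Cyp18a1, the cytochrome P450 that inactivates ecdysteroids, averaged 44.3 ± 7.77 in 424, 89.2 ± 10.7 in 65, 91.6 ± 34.3 in 113, 46.8 ± 8.56 in the null and 72.3 ± 14.5 in the control. It fell by 0.49 ± 0.17 in the null (limma adjusted p = 0.0447), and leaving out 1 array ended that call in 9 of 20 cases, at values from -0.54 to -0.38. Those arrays were null replicates 1, 2 and 4, control replicates 2, 3 and 4, 65 replicates 2 and 3, and 113 replicate 2. The call was also lost under 6 other settings, namely the fluidics module as a block, centring, quantile normalisation, no filter, a pseudocount of 64 and eBayes without a trend, at values from -0.49 to -0.30. The other P450 genes of the set, Cyp301a1 and Cyp28a5, had dips of 0.56 and 0.56 and were not called in the null. Of 21 measured genes on an ecdysone response list, 2 met the dip, Cyp18a1 and the excluded ImpE2, against 1.95% of all genes.

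Genes of the cytoskeleton and cell division gave 4 members, all with a control mean at least 0.5 above 424. Meics, a zinc-finger protein of the meiotic central spindle, had signals of 71.3, 96.4, 121 and 65.9 in 424, 308, 329, 333 and 299.9 in 65 and 256, 239.6, 248 and 264 in 113. They were 279, 327, 343 and 328 in the null and 308, 295, 328 and 351 in the control. Null and control overlapped, and the highest 424 array was under 125 while the lowest of the other 16 was above 235. Map205, a microtubule-associated protein, had 9.91, 9.87, 18.6 and 13.0 in 424, 78.0, 59.4, 54.4 and 77.7 in 65 and 60.3, 55.2, 71.9 and 42.6 in 113. It had 45.1, 76.6, 31.9 and 29.2 in the null and 98.5, 121, 120.5 and 163 in the control. The order was 424 lowest, then null, 65 and 113 overlapping, then control, and Map205 fell by 1.24 ± 0.19 in the null, on the log2 scale (limma adjusted p = 3.73e-05). Rcd6, a gene found in screens for centrosome function, also fell by 0.60 ± 0.15 in the null. On a cell cycle list, 0 of 18 measured genes met the dip, against 1.95% of all genes. The list's median of 424 minus the mean of 65 and 113 was 0.18.

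Translation, protein folding and trafficking gave 7 members. Vps60, a subunit of the ESCRT-III machinery that sorts membrane proteins, averaged 73.3 ± 10.9 in 424, 207 ± 18.8 in 65, 222 ± 15.4 in 113, 109.5 ± 6.87 in the null and 135 ± 12.1 in the control. All of its 424 arrays were below the others, with null and control between 424 and the other hypomorphs. TyrRS, the tyrosyl-tRNA synthetase, averaged 319.7 ± 37.7 in 424, 550.5 ± 59.7 in 65, 556 ± 33.0 in 113, 490.4 ± 46.7 in the null and 517 ± 61.6 in the control. The dip of BI-1, a Bax inhibitor of the endoplasmic reticulum, was 0.67, and in both genes the 424 arrays lay below all others. A further probe set of BI-1 did not dip, at means of 28.4 in 424, 26.9 in 65 and 26.2 in 113. That of TyrRS lay lower in 424 by less than the rule asks, at 25.2 in 424, 36.9 in 65 and 34.8 in 113. stv, a BAG-domain co-chaperone of muscle, averaged 43.3 ± 7.97 in 424, 68.7 ± 11.9 in 65, 92.3 ± 11.2 in 113, 76.1 ± 14.7 in the null and 69.7 ± 25.3 in the control. A further probe set of stv did not dip, at means of 53.1 in 424, 40.9 in 65 and 53.3 in 113. Only stv, of 11 measured genes on a list of heat shock and chaperones, met the dip, against 1.95% of all genes. Hsp60C, a mitochondrial-type chaperonin, read 13.9, 14.4, 5.06 and 19.4 in 424, 33.4, 25.0, 43.6 and 32.6 in 65 and 20.5, 34.1, 26.1 and 35.3 in 113, 1.89, 10.6, 5.20 and 2.68 in the null and 36.3, 26.9, 21.1 and 26.1 in the control, and fell by 1.05 ± 0.19 in the null against the control (limma adjusted p = 0.000228).

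The 3 immune effectors differed from one another. Drsl5, a drosomycin-like antifungal peptide, had signals of 939.6, 909.6, 990.2 and 1189 in 424, 1457, 1588, 1418 and 2095 in 65 and 1403, 1331, 1541 and 1575 in 113. They were 1.97, 7.39, 19.7 and 3.50 in the null and 15.5, 1.15, 6.96 and 6.94 in the control. All 12 hypomorph arrays were far above all 8 null and control arrays, which stayed below 20, and its dip of 0.54 was a difference among 3 high genotypes. Anp, the peptide andropin, averaged 6.34 in 424, 24.4 in 65, 70.5 in 113, 11.7 in the null and 14.8 in the control, and its 65 arrays spread from 5.94 to 45.4. The lysozyme gene LysC averaged 14.2 ± 9.79 in 424, 28.7 ± 9.78 in 65, 29.5 ± 7.54 in 113, 38.8 ± 10.1 in the null and 59.0 ± 11.5 in the control. It belongs to a cluster of near-identical lysozyme genes, so a probe set may read more than 1 of them.

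Of the 17 genes with a dip of at least 1, several have no assigned role here. CG10591 had the largest dip, 1.73, with signals of 1136, 1147, 1576 and 892 in 424, 3820.0, 4011, 3865 and 3931 in 65 and 4718, 4584, 4315 and 4053 in 113. They were 3697, 3295, 3212 and 3834 in the null and 4159, 4015, 4427 and 3759 in the control. All 4 arrays of 424 were below all 16 others, and null and control overlapped. hui averaged 39.6 ± 6.77 in 424, 127 ± 12.0 in 65, 174 ± 32.2 in 113, 93.9 ± 6.30 in the null and 158 ± 30.1 in the control, and fell by 0.64 ± 0.13 in the null (limma adjusted p = 0.00106). grsm, an aminopeptidase gene, averaged 39.5 ± 6.15 in 424, 122 ± 14.8 in 65, 112 ± 5.42 in 113, 63.5 ± 9.88 in the null and 99.1 ± 12.4 in the control, and fell by 0.53 ± 0.12 in the null (limma adjusted p = 0.00218). That call of grsm was lost with the fluidics module as a block, at -0.39.

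Sid, a stress-induced DNase, and htt, the huntingtin homologue, are neighbours on arm 3R, and in both the 424 mean was lowest and the control mean highest. Sid had signals of 2.17, 1.69, 2.26 and 1.96 in 424, 31.0, 18.0, 27.0 and 28.3 in 65 and 25.6, 33.4, 5.22 and 39.5 in 113. It had 21.0, 25.0, 16.8 and 25.8 in the null and 142, 168, 185 and 156 in the control. The control stood more than 100 above every mutant array, and the 424 arrays were the lowest, all under 2.3. htt had 3.66, 1.68, 1.76 and 5.51 in 424, 33.3, 14.7, 28.8 and 26.7 in 65 and 67.5, 56.3, 45.0 and 39.8 in 113. It had 17.7, 19.9, 34.8 and 23.9 in the null and 59.4, 60.6, 71.7 and 59.3 in the control. In the null Sid fell by 2.23 ± 0.21 and htt fell by 0.99 ± 0.17 on the log2 scale (limma adjusted p = 1.64e-08 and 0.000157). The 424 means of both lay under the minimum signal of 9.28, as did those of 8 further members, so the sizes of their dips depend on the pseudocount. Further neighbours, the pair CG11438 and CG11437 on arm 3L, had dips of 0.93 and 1.27.

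CG32572 and thw also had 424 means under that minimum. CG32572 had 1.27, 4.04, 11.0 and 2.29 in 424, 46.5, 31.0, 34.2 and 30.0 in 65 and 27.0, 29.5, 36.9 and 33.2 in 113. It had 66.3, 69.0, 47.3 and 52.2 in the null and 2.71, 3.23, 21.3 and 9.67 in the control. The 424 and control arrays overlapped at the bottom, 65 and 113 lay above them and the null was highest. CG32572 rose in the null by 1.61 ± 0.20 (limma adjusted p = 1.74e-06), and by 0.85 with the mean of all probe sets. thw averaged 3.65 ± 0.964 in 424, 44.7 ± 8.72 in 65, 26.2 ± 8.51 in 113, 4.81 ± 1.49 in the null and 4.05 ± 0.719 in the control, so that it was above the minimum in 65 and 113 only.

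Null against control was the comparison whose arrays had no part in the dip. There 25 of the 154 genes were called lower, against 10.9% of all 8360 genes, and 17 higher, against 8.86%. Together 42 members, 27.3%, were called, against 19.8% of all genes. The median of null minus control over the set was -0.07, against -0.01 over all genes. It was -0.012 with each array centred on its median and -0.036 without control replicate 4. Within fluidics days 1 to 4 the median of the set was -0.10, 0.01, -0.11 and -0.07. Within module 4, which held 2 null arrays and all 4 control arrays, it was -0.09. Genes of the set were thus called in both directions.

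**Figure D5:**
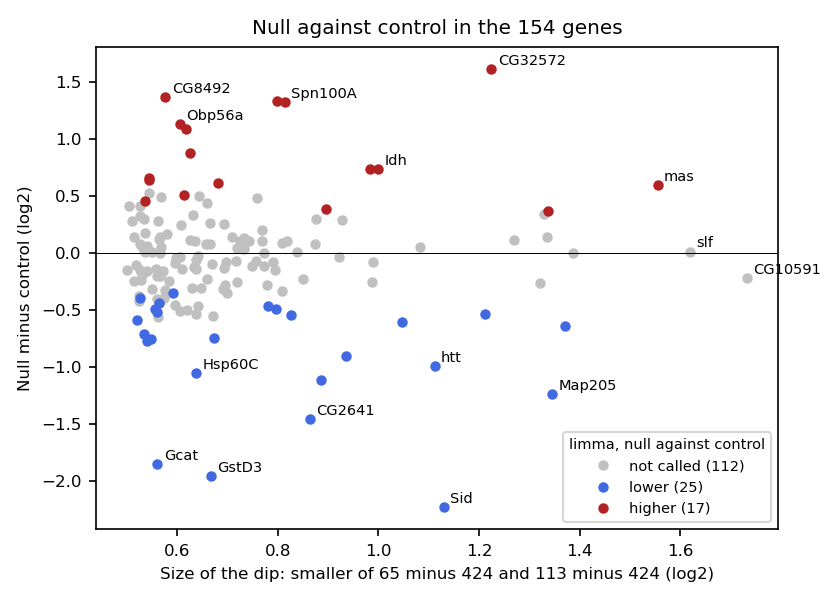
For each of the 154 genes, the size of the dip in 424 is on the x axis and the log2 difference of null minus control on the y axis, with genes coloured by the limma call. The 25 genes called lower reach -2.23 (Sid), the 17 called higher reach 1.61 (CG32572), and 112 are not called.

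Among the called genes with the largest falls in the null that have not been described, CG2641 averaged 21.0 ± 3.03 in 424, 51.9 ± 12.2 in 65, 59.8 ± 5.40 in 113, 36.6 ± 5.03 in the null and 129 ± 16.1 in the control, a null change of -1.46 ± 0.13. CG6426 averaged 23.7 ± 3.88 in 424, 57.4 ± 7.05 in 65, 57.9 ± 11.4 in 113, 11.1 ± 1.61 in the null and 45.6 ± 20.02 in the control, a null change of -1.11 ± 0.20. In CG2641 the lowest genotype was 424 and in CG6426 the null. Among the rises, Obp56a, an odorant-binding protein gene, averaged 653 ± 53.9 in 424, 1151 ± 68.9 in 65, 1005 ± 132 in 113, 1793 ± 119 in the null and 812 ± 58.9 in the control, a null change of 1.13 ± 0.09. c12.1 averaged 141 ± 9.14 in 424, 294 ± 19.6 in 65, 416 ± 24.0 in 113, 718 ± 53.0 in the null and 425 ± 43.2 in the control, a null change of 0.74 ± 0.08. CG8492 averaged 11.1 ± 9.21 in 424, 24.1 ± 10.5 in 65, 25.2 ± 16.1 in 113, 57.1 ± 17.0 in the null and 13.1 ± 9.92 in the control, a null change of 1.37 ± 0.29. In c12.1 all 424 arrays were the lowest and all null arrays the highest of the 20, whereas in CG8492 the 424 arrays overlapped with those of 65, 113 and control.

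No measured gene of the sarcomere (15), fat body (11), hemocyte (17), neuron and neuroblast (17), glia (11), gut endoderm (15), salivary gland (8) or germ line (8) list met the dip, which 1.95% of all genes met, so counts of 0 in lists of this size are near that share. The trachea list gave Gasp of 12 measured, the amnioserosa list tup of 11, and the innate immunity list Anp and Drsl5 of 17. As whole lists these did not dip. Their medians of 424 minus the mean of 65 and 113 were 0.011, 0.009 and 0.017, against 0.007 over all genes. In the sarcomere list the median of 424 minus the mean of 65 and 113 was 0.10. Geometric mean signals on that list were 176 in the control, 146 in 65, 115 in 424, 78.5 in 113 and 55.8 in the null. The sarcomere value of 424 thus lay between those of 65 and 113. In null against control, 11 of its 15 genes were called lower, against 10.9% of all genes, with a list median of -1.49. The share of other cell types in the pools and its part in the dip were not tested.

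By position, 51 of the 154 genes (33.1%) lay on arm 3L, which holds 19.5% of the 8360 genes, and 42 (27.3%) lay on 3R, which holds 24.8%. The second chromosome, which carries mef2, held 26.0% of the set and 37.8% of all genes. The X held 13.0% of the set and 17.0% of all genes. In 7 places 2 members were neighbours with at most 1 gene between them, and no run of 3 was found. These shares are descriptions, with no test. The same rule turned to the other alleles gave fewer genes. Of 8360 genes, 30 (0.359%) lay at least 0.5 below both other hypomorphs in 65 and 61 (0.730%) in 113, against 163 (1.95%) in 424. The opposite pattern in 424, at least 0.5 above both, was met by 71 genes (0.849%).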

How the data were processed

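For every probe set the authors deposited a linear intensity, made with MAS5 per the submitters' processing notes, whose version is not given in the sources used here. The trimmed mean of each array was 100.02 with 2% trimmed at each end, so arrays had been scaled before deposit. Detection calls were not used. No count or depth exists for arrays, and 4 arrays per genotype limit the precision.

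Of 14010 probe sets, 44 controls were dropped, 12443 had 1 gene symbol, 327 several and 1196 none, and 12394 matched the RefSeq gene table. They stood for 10844 genes, 8360 of them over the minimum. Values were analysed as log2(signal + 16), so differences of dim genes are understated. Null against control was tested in a limma model (limma 3.58.1, R 4.3.3) of all 20 arrays, with genotype as the single factor and a trended eBayes. A call needed an adjusted p (Benjamini-Hochberg, over all 8360) below 0.05. Tables and plots used python 3.11.15, pandas 2.3.3 and matplotlib 3.10.9. The fit was tested on simulated data.

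The rule for named genes took the 15 largest dips, the 8 called genes with the largest change in each direction in null against control without overlap of arrays, members on a list, the 3 genes on each side of the threshold, and families of 3 or more. Other genes are named as examples of a role, chosen after their values were seen. Members, roles and lists were chosen with earlier results of these data known. Alternatives covered pseudocount, scaling, probe set choice, filter, blocks and single arrays left out. Promoter sequences were not analysed here.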

Additional observations from a re-analysis of the deposited data

Results flagged for a closer look

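In 205 sets of 4 replicate signals of the named genes, 10 held 1 array farther from the others than Dixon's 95% value for 4 samples allows, and chance gives about 1 in 20 such sets. No explanation was tested for any of them. In 424, stv read 31.5 in replicate 2 against 45.3 to 48.4 in the others, and CG32271 read 10.45 in replicate 3 against 3.09 to 4.09. In 65, Nep2 read 207.3 in replicate 4 against 288 to 306, the array whose fluidics record holds an abort message. In 113, mas read 431.9 in replicate 4 against 601.5 to 618, and CG11437 read 119.6 in replicate 2 against 130.0 to 130.5. In the null, Faa read 163.8 in replicate 3 against 198 to 205, CG31371 read 111.8 in replicate 4 against 132 to 134, CG8492 read 82.51 in replicate 2 against 46.9 to 49.5, and Obp56a read 1971 in replicate 1 against 1719 to 1742. In the control, htt read 71.69 in replicate 3 against 59.3 to 60.6.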

How the results depend on the processing

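The size of the set followed the settings of its rule. With a pseudocount of 1 it held 395 genes and with 64 it held 49, with an overall mean of at least 6 it held 100, and with dips of 0.4, 0.6 and 1 it held 247, 95 and 17. The count of members at least 0.5 below control and null was 26 with a pseudocount of 64, and the median of null minus control was -0.012 after centring each array on its median. Leaving out 1 array gave 149 to 180 members, of which 129 to 154 were among the 154, and 48 to 59 below control and null. It gave 20 to 27 members called lower, 16 to 19 called higher, and medians from -0.081 to -0.036, the last without control replicate 4. With the replicate block, 27 were called lower and 18 higher, and the set was the same 154 genes. Deviations of same-numbered null and control arrays correlated at r of 0.031, 0.047, -0.019 and 0.059, although these arrays share a fluidics and scan day as well as a number, and the block ended the call of none of the 42 called members. With the fluidics module as a block, 18 were called lower, 14 higher and 165 genes met the rule, 129 of them shared. Of the 42 called members, 29 kept their call under every alternative run. A pseudocount of 64 moved the values of 16 of the 42 by over 1.5 times, a pseudocount of 1 those of 6, and the mean of all probe sets those of 4. Leaving out 1 array ended the call of obst-B in 13 of 20 cases, of Cyp18a1 in 9, of CG34165 and DIP-zeta in 7 each, of Faa in 4, of Pgant2 in 3, and of Skel (control replicate 2, 0.41) and CG17549 (control replicate 3, -0.39) in 1 each. The sign turned only for genes that were not called. With arrays centred or quantile normalised, Meics was 0.059 and 0.00087 and Cyp301a1 0.061 and 0.051, and Cyp301a1 was 0.13 with the module as a block. With the mean of all probe sets mey was 0.050, stv -0.049 and MetRS-m 0.065. Leaving out 1 array gave -0.073 to 0.13 for slf, -0.041 to 0.056 for Meics, -0.34 to 0.012 for Anp, -0.20 to 0.16 for Drsl5, -0.048 to 0.079 for Gasp, -0.32 to 0.020 for MetRS-m and -0.083 to 0.085 for Cyp301a1. The causes were not tested. The 424 mean of 10 members lay under the minimum signal of 9.28, where the pseudocount sets most of the value.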

Other observations

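The 9 genes that met the dip and were left out by name included the largest dip of all. ImpE2, an ecdysone-inducible gene, averaged 51.9 in 424, 800.5 in 65, 834 in 113, 608 in the null and 728 in the control. Cpr11A, a cuticle protein gene, averaged 12.0 in 424, 69.6 in 65, 71.1 in 113, 63.4 in the null and 34.5 in the control, and zfh1, a zinc-finger homeodomain factor of mesoderm, averaged 69.8 in 424, 198 in 65, 285 in 113, 178 in the null and 429 in the control. The others were sha, Cht5, Nrx-IV, Cpr78Cb, TwdlN and Edg91, with dips from 0.51 to 1.07.

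At the high end of the signal scale, CG9184 averaged 4257 in 424, 7719 in 65, 9112 in 113, 8217 in the null and 7785 in the control, and all 4 arrays of 424 lay below the other 16. CG7296 averaged 1168 ± 63.7 in 424, 1732 ± 81.5 in 65, 1736 ± 23.6 in 113, 1892 ± 170 in the null and 1737 ± 53.4 in the control (SD, n = 4 each). Its 424 arrays, too, lay below the other 16.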
